A study of Homo sapiens with 12 samples.

Results

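H2AZ2, H3-3B, H1-10 and HMGB2 encode 4 proteins that package DNA, and they are described here on 12 two-channel arrays of H460 cells, an established human lung cancer line. They are 4 of the 5499 genes that the arrays represent, found through 5 probes of the platform annotation, 1 probe each except H1-10 with 2. The genes were chosen with their ratios on these arrays already known, so those ratios are a description and carry no test. Cells were exposed for 24 h to 1 of 5 drugs: 1 µM 5-fluorouracil (5-FU), 5 µM cisplatin, 0.2 µM cytarabine, 0.2 µM cytochalasin D or 5 nM paclitaxel. Untreated H460 RNA was the other channel of every array. 5-FU was hybridised in both orientations (2 replicates, 4 arrays), with treated RNA in channel 2 on the forward arrays and in channel 1 on the reversed arrays. Each other drug has 2 arrays with treated RNA in channel 1. Neither separate cultures for the replicates nor a shared untreated RNA is mentioned by the labels, so the spread between replicates may be technical.

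The nucleosome is built of core histones, and linker histones of the H1 family bind where DNA enters and leaves it. H2AZ2 encodes H2A.Z.2, a replacement form of H2A placed at promoters and enhancers, and H3-3B is one of the genes for H3.3, the H3 variant deposited outside DNA replication. H1-10 encodes the linker histone H1.10, also called H1X, and HMGB2 is a high mobility group protein that bends DNA and is most abundant in dividing cells. The drugs act at different points: 5-FU and cytarabine are pyrimidine antimetabolites, cisplatin crosslinks DNA, paclitaxel stabilises microtubules and cytochalasin D blocks actin filament growth.

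The stretch of 250 bases before the start site was held by the RefSeq promoter table (GRCh38.p14) for 3 of the 4 genes: H2AZ2, H3-3B and H1-10. These stretches are shown because all 3 genes read below untreated RNA with 5-FU but parted with the other drugs. All lie on the minus strand and are written 5′ to 3′, with CCAAT (or its reverse complement ATTGG) and TATAAA in capitals. They cover chr7:44848088-44848337 for H2AZ2, chr17:75779780-75780029 for H3-3B and chr3:129316287-129316536 for H1-10.
H2AZ2: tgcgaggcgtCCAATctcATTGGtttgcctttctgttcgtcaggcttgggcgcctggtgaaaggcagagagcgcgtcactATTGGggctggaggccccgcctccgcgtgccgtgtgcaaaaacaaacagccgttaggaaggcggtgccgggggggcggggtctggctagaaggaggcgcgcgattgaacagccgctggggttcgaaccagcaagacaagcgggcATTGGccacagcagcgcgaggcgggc
H3-3B: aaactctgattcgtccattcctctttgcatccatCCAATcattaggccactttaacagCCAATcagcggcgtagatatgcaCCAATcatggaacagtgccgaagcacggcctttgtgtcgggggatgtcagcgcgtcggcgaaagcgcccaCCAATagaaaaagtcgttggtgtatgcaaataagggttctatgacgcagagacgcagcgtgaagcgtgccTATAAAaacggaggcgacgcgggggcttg
H1-10: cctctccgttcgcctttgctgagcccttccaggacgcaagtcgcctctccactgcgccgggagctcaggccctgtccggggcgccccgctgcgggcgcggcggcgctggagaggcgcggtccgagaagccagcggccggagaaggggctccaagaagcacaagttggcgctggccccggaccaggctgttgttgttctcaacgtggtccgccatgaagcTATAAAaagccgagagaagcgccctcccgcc

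CCAAT, the letters of the box bound by nuclear factor Y, was found 4 times on either strand in H2AZ2 and 4 times in H3-3B, and 0 times in H1-10. Over all 35116 windows of the table, 32.0% held it at least once and 0.874% held it 4 or more times. TATAAA, added to the search after the sequences were seen, was found 1 time each in H3-3B and H1-10, and in 10.7% of all windows. TTTGAA and TTCCCGC, the other motifs searched on both strands, were found in none of the 3 stretches, against 13.3% and 5.52% of all windows. No motif searched overlaps another here. A match describes the letters and shows no binding.

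Values are log ratios of treated over untreated RNA within an array, centred on the array's median and taken as log2, since the base is not given in the sources used here. They carry no level of expression, so H460 identity could not be checked against its markers. The direction is likely rather than stated: it is the sign for which MDM2 (1.48), CDKN1A (2.49) and the median of 16 p53 target genes (0.25) are positive in 5-FU, and with that sign they are positive in cisplatin too (2.65, 3.66 and 1.38). The 5-FU arrays lacked 21.5 to 46.7% of probe values, and the other arrays 6.44 to 14.5%. Across probes, 5-FU arrays correlated with those of other drugs at 0.04 to 0.19, whereas cytarabine, paclitaxel and cytochalasin D arrays correlated with each other across drugs at 0.63 to 0.73 (genes are not independent replicates). Cisplatin arrays correlated with those of these 3 drugs at 0.35 to 0.44. Arrays of the same drug correlated at 0.49 to 0.68 for 5-FU and at 0.71 to 0.82 for the other 4 drugs. Whether shared untreated RNA or a channel bias gives the 0.63 to 0.73 was not tested. In bulk RNA, fewer cells that express a gene and less of its RNA per cell cannot be told apart, and the part of a signal that comes from near-identical family members was not measured.

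The 4 genes read lowest with 5-FU and differed in what the other drugs did. HMGB2 was low on the 5-FU arrays and, to a smaller extent, with cytochalasin D and cytarabine. H1-10 was low with 5-FU on its better measured probe but above 0 on both arrays of cytarabine and of paclitaxel. H2AZ2 lay between −0.22 and 0.13 on all arrays of the other 4 drugs, and H3-3B was lowest with 5-FU and highest with cisplatin.

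**Figure D1:**
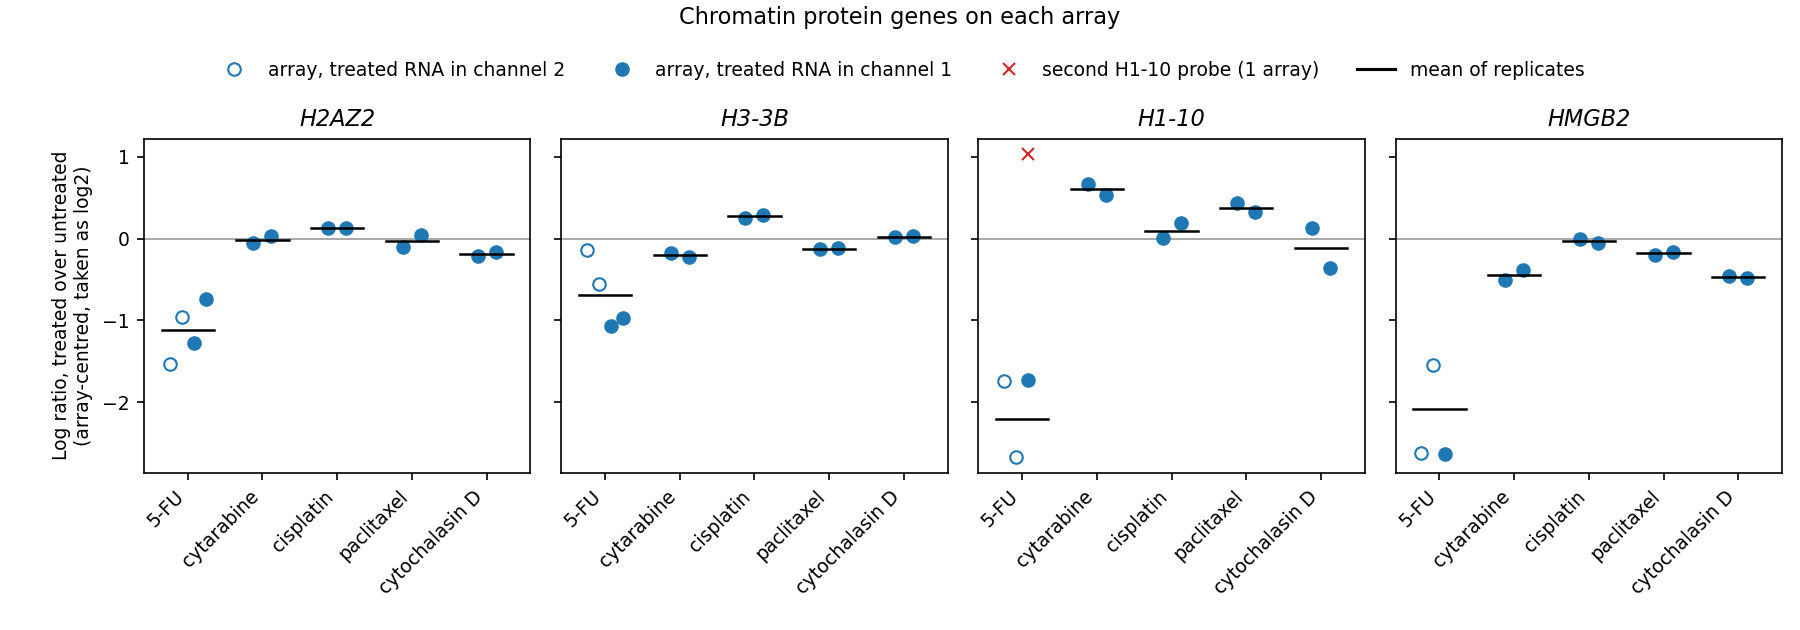
Log ratio of treated over untreated RNA (vertical axis, taken as log2) on each array for H2AZ2, H3-3B, H1-10 and HMGB2, by drug (horizontal axis). Open circles are arrays with treated RNA in channel 2 and filled circles those with it in channel 1, the cross is the second H1-10 probe on 1 array, and bars are means of 2 replicates (for H1-10, of the better measured probe). All circles of 5-FU lie below 0, whereas the cross lies at 1.04.

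HMGB2 was the lowest of the 4 genes on both arrays of 5-FU replicate 1. On the forward arrays it read −2.63 (replicate 1) and −1.54 (replicate 2), on the reversed array of replicate 1 −2.64, and the reversed array of replicate 2 gave no value. The forward and reversed arrays of replicate 1 therefore differed little, and replicate 2, known from 1 orientation only, was less low. The mean over replicates was −2.09 ± 0.77 (SD, n = 2), and 0.0311% of the 6425 features with a 5-FU value read lower.

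With cytarabine HMGB2 read −0.51 and −0.38, with cytochalasin D −0.46 and −0.48, with paclitaxel −0.20 and −0.16, and with cisplatin −0.00029 and −0.05. From the lowest, the order of means was 5-FU, cytochalasin D (−0.47 ± 0.02), cytarabine (−0.45 ± 0.09), paclitaxel (−0.18 ± 0.03) and cisplatin (−0.03 ± 0.04; SD, n = 2 each). Arrays of cytochalasin D and cytarabine overlapped, and no other neighbours in that order did. Each drug but 5-FU has 2 arrays, and no share of all features that separate in this way is given. Overlap, here and for the other genes, therefore only describes these arrays. Of all features, 7.84% read lower with cytochalasin D and 12.1% with cytarabine. HMGB2 thus read below 0 on all 11 arrays that measured it, although its cisplatin values were close to 0.

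H1-10 is measured by 2 probes that disagree. The first has values on 11 arrays and the second on 1, the reversed array of 5-FU replicate 1. There the first probe read −1.73 and the second 1.04, so the mean of the probes on that array was −0.35. The 5-FU values of the first probe were −1.74 and −2.67 on the forward arrays, and the reversed array of replicate 2 had no value.

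On the first probe the 5-FU mean of H1-10 was −2.21 over 2 replicates. With both probes averaged it was −1.86 ± 1.15 (SD, n = 2), and 0.125% of features read lower. With cytarabine H1-10 read 0.67 and 0.54 (0.60 ± 0.09), and 98.7% of features read lower than that mean. With paclitaxel it read 0.44 and 0.33 (0.38 ± 0.08), and 97.9% of features read lower. These are the highest array values of the 4 genes, apart from the second H1-10 probe.

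With cisplatin H1-10 read 0.01 and 0.19, and with cytochalasin D 0.13 and −0.36, the 2 replicates differing in sign. From the lowest, the order of means was 5-FU, cytochalasin D (−0.12 ± 0.34), cisplatin (0.10 ± 0.13), paclitaxel and cytarabine. Arrays of cytochalasin D and cisplatin overlapped. Those of 5-FU and cytochalasin D did not overlap on the first probe, but did with the probes averaged (−0.35 against −0.36). The 2 pyrimidine antimetabolites thus lie at opposite ends of the H1-10 order: 5-FU minus cytarabine was −2.46 with the probes averaged.

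H2AZ2 had a value on all 12 arrays. With 5-FU it read −1.53 and −0.95 on the forward arrays and −1.27 and −0.74 on the reversed arrays, for replicates 1 and 2 in turn. Replicate 1 was the lower in both orientations. The mean was −1.12 ± 0.39 (SD, n = 2), with 1.62% of features lower.

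With cytochalasin D H2AZ2 read −0.22 and −0.17, with paclitaxel −0.10 and 0.04, with cytarabine −0.06 and 0.03, and with cisplatin 0.13 on both arrays. The means in order were −1.12 (5-FU), −0.19 ± 0.04 (cytochalasin D), −0.03 ± 0.10 (paclitaxel), −0.01 ± 0.06 (cytarabine) and 0.13 (cisplatin). Paclitaxel and cytarabine overlapped, and the other neighbours did not. The smallest distance of 5-FU from another drug was 5-FU minus cytochalasin D, at −0.93.

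H3-3B also had a value on every array, and here the orientation mattered. The forward 5-FU arrays read −0.13 and −0.56 and the reversed ones −1.07 and −0.97. All were below 0, but the forward mean was −0.35 and the reversed mean −1.02. The mean over replicates was −0.68 ± 0.12 (SD, n = 2), with 6.52% of features lower.

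With cisplatin H3-3B read 0.25 and 0.29 (0.27 ± 0.03), with cytochalasin D 0.03 on both arrays, with paclitaxel −0.13 and −0.11 (−0.12 ± 0.01), and with cytarabine −0.17 and −0.22 (−0.20 ± 0.04). Neighbouring drugs did not overlap on these few arrays, except that 5-FU overlapped cytarabine through its forward array of replicate 1. On reversed 5-FU arrays alone, where treated RNA is in the same channel as for cytarabine, they did not overlap. Cisplatin and cytarabine, which both act on DNA, lay at opposite ends of the other 4 drugs, and cytarabine minus cisplatin was −0.47.

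**Figure D2:**
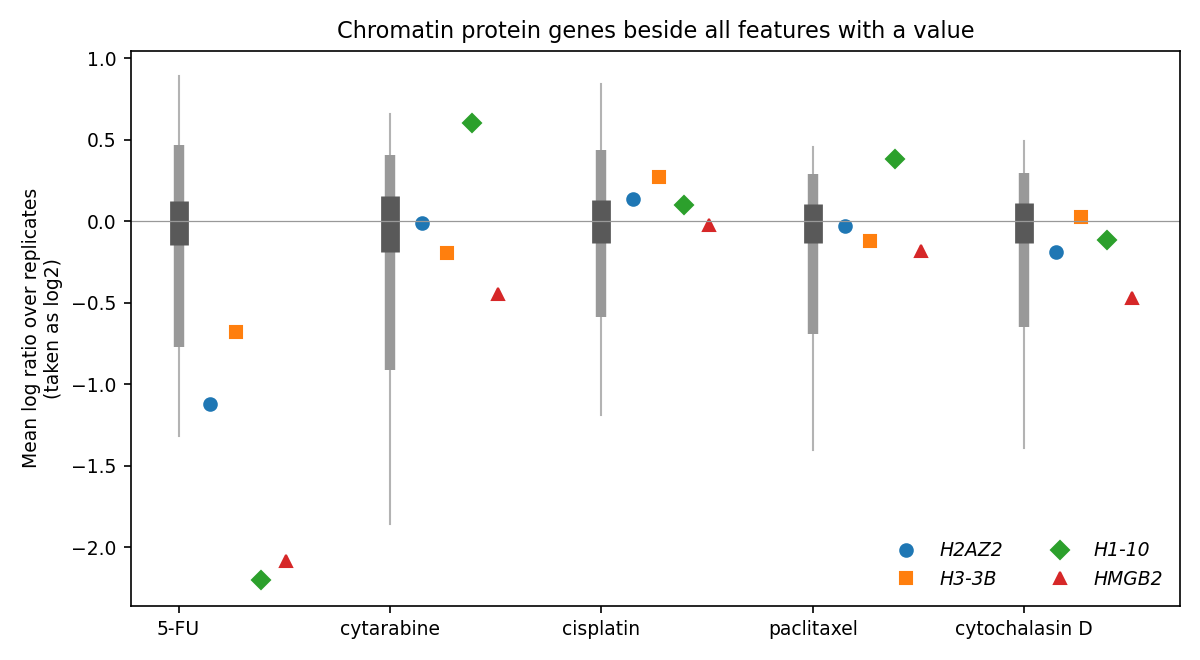
Mean log ratio over replicates (vertical axis, taken as log2) of the 4 genes by drug (symbols; H1-10 by its better measured probe), beside all features with a value (grey: thick bar the lower to the upper quartile, thinner bar the 5th to 95th percentile, line the 1st to 99th). In 5-FU the means of H1-10 (−2.21) and HMGB2 (−2.09) lie below the line, and in cytarabine H1-10 (0.60) lies near its upper end.

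The treated channel is the same on all arrays of cytarabine, cisplatin, paclitaxel and cytochalasin D, so a channel bias of a gene would add the same amount to each of them. Forward and reversed 5-FU arrays gave an estimate of that amount. It was −0.34 for H3-3B, 0.12 for H2AZ2 (2 pairs of arrays each) and −0.01 for HMGB2 (1 pair). For H1-10 it was 0.70 with the probes averaged but 0.00 on the first probe (1 pair each). The 0.70 sets the first probe alone on the forward array (−1.74) against the mean of both probes on the reversed array (−0.35). It thus reflects which probes had values rather than the channel.

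Fitted with this channel term in limma, H3-3B read 0.14 ± 0.07 in cytarabine, 0.22 ± 0.07 in paclitaxel, 0.36 ± 0.07 in cytochalasin D and 0.61 ± 0.07 in cisplatin (SE). The values for cytarabine and paclitaxel thus turn from below to above 0, while the order of the drugs and the differences among these 4 are the same by construction. For HMGB2 the term moved these 4 drugs by 0.01, and the 5-FU value became −2.63 ± 0.08 because the fit drops replicate 2, which has 1 orientation. That SE holds no spread of HMGB2 between 5-FU replicates, which read −2.63 and −1.54 when both are kept. H2AZ2 read −0.31 ± 0.14 in cytochalasin D and 0.02 ± 0.14 in cisplatin.

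H1-10 depends on the treatment of its single second-probe value. With the probes averaged, the term took cytarabine to −0.09 ± 0.17 and paclitaxel to −0.32 ± 0.17, and 5-FU, from replicate 1 alone, to −1.04 ± 0.17. On the first probe the same fit gave 0.60 ± 0.17, 0.38 ± 0.17 and −1.74 ± 0.17. As for HMGB2, the SE of the 5-FU values holds no spread between 5-FU replicates. The positive values of H1-10 in cytarabine and paclitaxel are therefore those of the probe that was measured on 11 arrays.

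**Figure D3:**
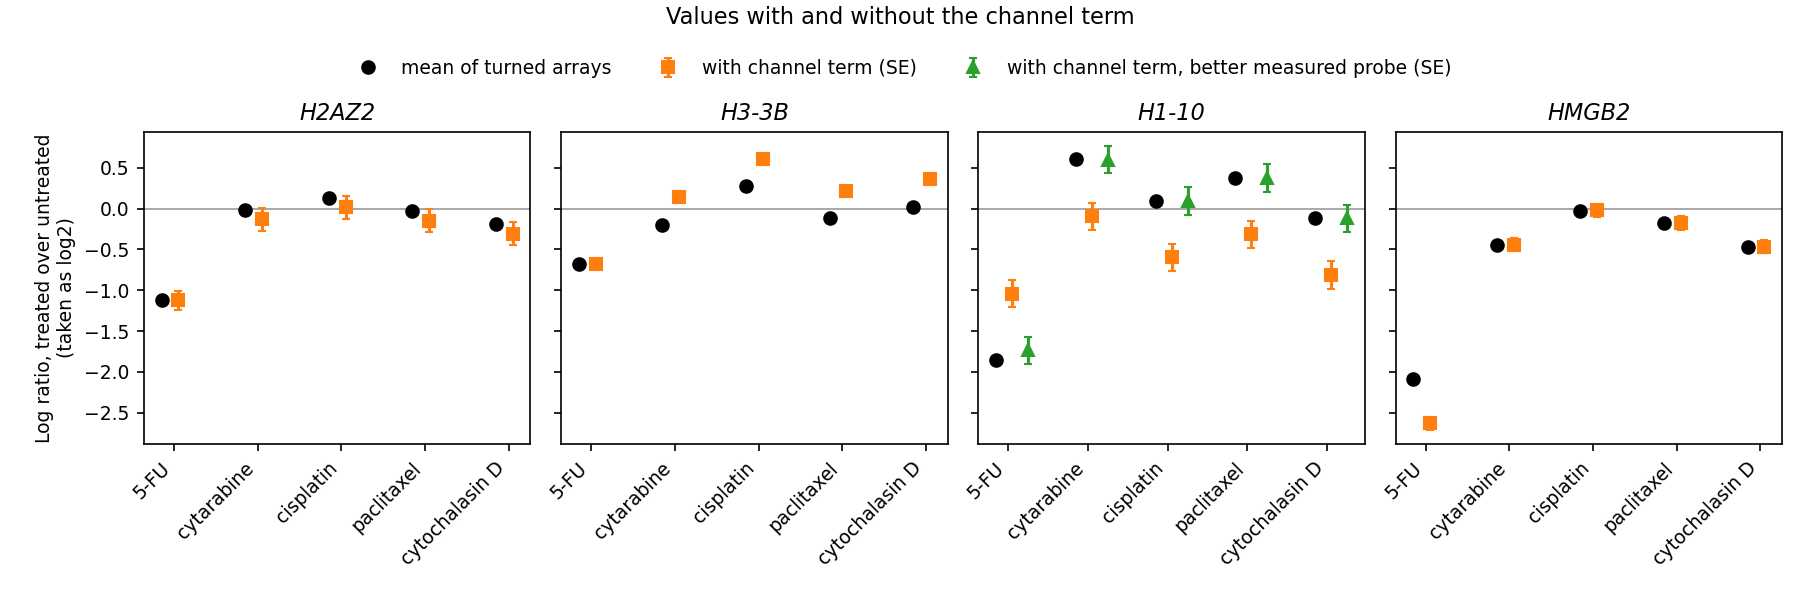
Log ratio by drug (horizontal axis) of the 4 genes as the mean of turned arrays (black circles), with the channel term (orange squares, ± SE) and, for H1-10, with the channel term on the better measured probe alone (green triangles, ± SE). The term lifts H3-3B above 0 in cytarabine (0.14) and paclitaxel (0.22), and for H1-10 in cytarabine the probes averaged give −0.09 against 0.60 on the better measured probe. For HMGB2 and H1-10 the fit holds 1 5-FU replicate, so the SE there holds no spread between 5-FU replicates.

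Other chromatin genes were counted over 4 lists, with limma, the channel term and Benjamini-Hochberg adjusted p under 0.05 over all features tested for a drug. With 5-FU, 12.1% of 5043 features fell and 5.43% rose. Among 6 further histone genes 1 fell, with a median of −0.01 against 0.01 over all features. The fall was in H2AX, the H2A variant phosphorylated at DNA breaks (−0.93 ± 0.09 SE, −1.15 to −0.84 on its 3 arrays). Replicate 1 is alone in that fit, so its SE and call hold no spread of H2AX between 5-FU replicates. The replication-dependent genes H3C10, H2BC11 and H2BC21 read −0.0033, 0.13 and 0.17, and the linker histone H1-3 −0.06, none of them passing.

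Of 7 HMG genes tested with 5-FU, out of 11 on the arrays, 4 fell (median −0.29). They were SSRP1, a subunit of the histone chaperone FACT (−0.77 ± 0.05, adjusted p = 6.1e-05), HMGB1, the close relative of HMGB2 (−0.77 ± 0.06), UBTF, a factor of ribosomal RNA transcription (−0.60 ± 0.10), and SMARCE1, a remodelling subunit (−0.29 ± 0.06). The HMGB1 value averages probes that disagree, at −1.58 and 0.05 over 4 arrays. SMARCE1 was low on the reversed 5-FU arrays (−0.56 and −0.52) but near 0 on the forward ones (−0.0041 and −0.064), and did not pass without either 5-FU replicate (−0.29 and −0.28). UBTF drops 5-FU replicate 2, which lacks an orientation, so its SE and call hold no spread between 5-FU replicates.

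Among 15 histone chaperones and exchange factors tested (18 on the arrays) 2 fell and 1 rose with 5-FU (median −0.05). ANP32B, an acidic histone-binding protein, fell by 1.08 (SE 0.07, adjusted p = 4.6e-05) and nucleolin (NCL) by 0.98. TSPYL1 rose by 0.31, a call that ended without 5-FU replicate 1 (0.25). Of 30 histone modifying enzymes tested (36 on the arrays) 1 fell, the mitotic H3 kinase AURKB (−0.91 ± 0.10), and 1 rose, the deacetylase SIRT1 (0.37; 0.27 and not passing without 5-FU replicate 1).

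With cytarabine 10.6% of 4828 features rose and 11.1% fell. Of the same 6 histone genes 3 rose (median 0.23, against 0.04 over all features): CENPA, the centromeric H3 variant (0.64 ± 0.10; 0.31 without the channel term, where it also passed), H2AX (0.52 ± 0.09) and H3C10 (0.29 ± 0.08). The channel term of CENPA rests on 1 pair of 5-FU arrays, which read 0.32 (forward) and −0.35 (reversed). H2AX read −0.93 with 5-FU, from replicate 1 alone, and 0.52 with cytarabine, where its call in limma had adjusted p = 0.0127. The difference itself was not tested. H2AX did not pass without cytarabine replicate 2 (0.49), nor H3C10 without any 1 cytarabine, 5-FU or cytochalasin D replicate (0.26 to 0.32) or with arrays scaled to the same spread (0.25). Of 7 HMG genes 1 rose, UBTF (0.49; 0.25 and not passing without the channel term, nor without either cytarabine replicate).

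In the chaperone list of cytarabine 1 of 15 rose, CHAF1A, the large subunit of chromatin assembly factor 1 (0.23; not passing in 8 of 17 alternatives, such as 0.14 without the channel term), and 1 fell, ACTL6A (−0.41; −0.25 and passing without the channel term, −0.29 and not passing without 5-FU replicate 2). Of 30 modifying enzymes 1 rose, HDAC9 (0.29), and 1 fell, AURKB (−0.48). Both lost their calls without cytarabine replicate 2 (0.25 and −0.35) and without either 5-FU replicate (0.27 and 0.31 for HDAC9, −0.44 and −0.53 for AURKB). Scaling the arrays to the same spread ended both too (0.25 for HDAC9 and −0.36 for AURKB). HDAC9 also lost it without cytarabine replicate 1 (0.33) or either cytochalasin D replicate, or when each array counts as an observation (0.29 in all 3).

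With cisplatin 8.49% of 4936 features rose and 7.76% fell. Of 6 histone genes 2 rose, CENPA (0.68 ± 0.10; 0.34 without the channel term, where it also passed) and H2BC11 (0.30 ± 0.07), and 1 fell, H3C10 (−0.34 ± 0.08), with a median of −0.10. H2BC11 read 0.06 without the channel term and 0.09 without 5-FU replicate 2, passing in neither, nor without either cisplatin replicate (0.25 and 0.35) or either cytochalasin D replicate, nor when each array counts as an observation (0.30 in all 3). H3C10 missed the threshold without any of the cisplatin or 5-FU replicates (−0.38 to −0.31), and CENPA without cisplatin replicate 2 (0.63, adjusted p = 0.0504). Of 7 HMG genes 1 rose, SMARCE1 (0.76 ± 0.08, adjusted p = 0.00133; 0.51 without the channel term). UBTF read −0.58 and −0.46 on the cisplatin arrays and passed as a fall only without the channel term (−0.52, adjusted p = 0.00519; −0.28 and adjusted p = 0.107 with it).

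Of 30 modifying enzymes 3 rose and 3 fell with cisplatin. The Polycomb subunit EED rose by 0.75 (SE 0.12, adjusted p = 0.00954), and AURKB (−0.56), the deacetylase HDAC1 (−0.54; −0.22 and not passing without the channel term) and the arginine methyltransferase PRMT3 (−0.36) fell. The demethylase KDM5C (0.35) and the methyltransferase KMT2D (0.32), named after their values were seen, also rose, and read 0.15 and 0.05 without the channel term, where neither passed. KMT2D has 2 probes that disagree with 5-FU (0.68 and −0.71 over 3 arrays each), and only the second has cisplatin values. The channel term of KMT2D averages both probes. PRMT3 also averages 2 probes, at −0.24 and −0.60 with cisplatin, and the second has values on 3 of the 4 5-FU arrays. Among 15 chaperones 1 rose, NAP1L4 (0.39, but not passing in 13 of 15 alternatives, such as 0.13 without the term). AURKB, HDAC1 and PRMT3 lost their calls without cisplatin replicate 2 (−0.62, −0.39 and −0.32) and without 5-FU replicate 2 (−0.52, −0.52 and −0.28). AURKB also lost it without cisplatin replicate 1 (−0.51) or 5-FU replicate 1 (−0.61), and with scaled arrays (−0.51).

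With paclitaxel 2.62% of 4915 features rose and 4.03% fell. The 1 call among the 58 listed genes tested was a rise of CENPA (0.53 ± 0.10, adjusted p = 0.0335), a call that ended in 9 of 15 alternatives. Among them are the fit with no channel term (0.19) and those lacking either paclitaxel replicate (0.48 and 0.58) or any 1 cytarabine or cisplatin replicate (0.53 in each). With cytochalasin D 4.37% rose and 6.45% fell. SSRP1 (−0.50 ± 0.06, adjusted p = 0.00545) and TFAM, which packages mitochondrial DNA (−0.39 ± 0.09), fell among the 7 HMG genes, AURKB fell (−0.51) and CHAF1A rose (0.24, but not passing in 13 of 17 alternatives, such as 0.14 without the term). Of 6 histone genes 0 passed in limma, and 2 had an unadjusted p under 0.05. Without the channel term H1-3 (0.30, adjusted p = 0.0278) and UBTF (−0.40, adjusted p = 0.0189) passed with cytochalasin D. TFAM did not pass without 5-FU replicate 2 (−0.22) or either cytochalasin D replicate (−0.46 and −0.32), nor when each array counts as an observation (−0.39). AURKB did not pass without cytochalasin D replicate 2 (−0.30), nor without any 1 of the 5-FU (−0.55 and −0.47), cisplatin or paclitaxel replicates (−0.51 in each).

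**Figure D4:**
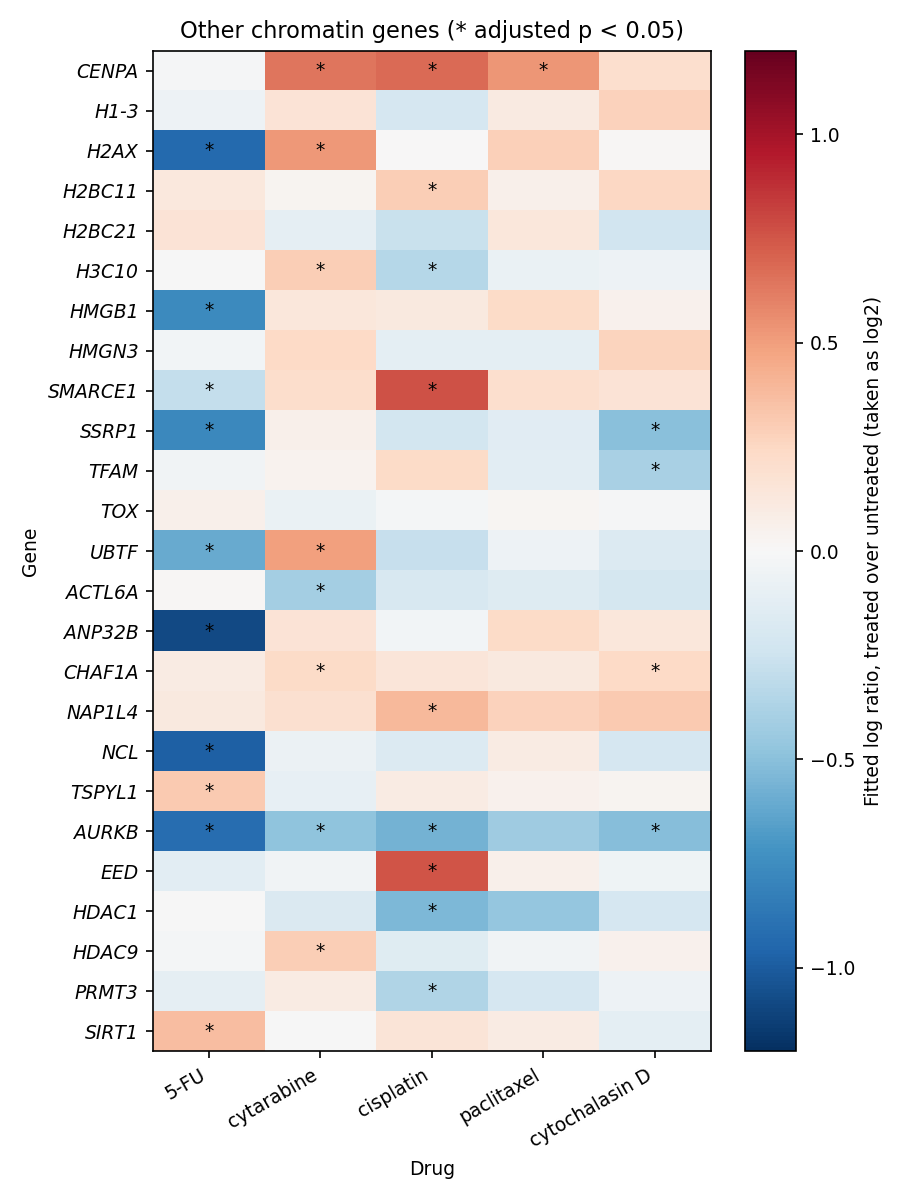
Fitted log ratio with the channel term (colour, taken as log2) of other chromatin genes (rows: the tested histone and HMG genes, then chaperones and enzymes named by the rule) by drug (columns); asterisks mark adjusted p under 0.05 in limma. The 5-FU column holds the darkest falls, ANP32B (−1.08), NCL (−0.98) and H2AX (−0.93), while H2AX is positive in cytarabine (0.52).

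Genes with a pattern most like each of the 4 were sought among named genes with a value on the same arrays. Most of each pattern is the gap between 5-FU and the other drugs, the arrays fall into those clusters, and arrays share channel and possibly untreated RNA, so r is a description. For H2AZ2 (12 arrays) they were the splicing proteins SFPQ (r = 0.96) and SRSF9 (0.96), the sorting nexin SNX17 (0.95), and the DNA repair genes PARP1 and MSH6 (0.93 each). HMGB2 (11 arrays) was most like H2AZ2 itself (0.98), followed by RPL14 (0.97), SRSF9 (0.97), SNX17 (0.96) and XK (0.96). On the 8 arrays without 5-FU, r between HMGB2 and H2AZ2 was 0.78.

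H3-3B was most like NUCB2 (r = 0.96), the myosin light chain MYL12A (0.96), RAPGEF2, OXT and the chaperone HSP90B1 (0.93 each, 12 arrays). H1-10 on its first probe was most like the glycolytic enzyme PFKP (0.98), MYO1C (0.98), TRAP1 (0.97), SNRNP200 (0.97) and H2AX (0.96, 11 arrays). With the probes averaged PFKP still led (0.95), followed by IMPDH2 (0.95), BRD3 (0.95), CAD (0.94) and MT1X (0.94). Over the 8 arrays without 5-FU, r was −0.61 between H3-3B and H1-10, 0.18 between H2AZ2 and H1-10 and −0.08 between H1-10 and HMGB2. Ranked by r over the 5 drug means, other genes led for H2AZ2 (YWHAE), H3-3B (CCT5), H1-10 (PAIP1) and HMGB2 (CX3CR1), at r of 0.998 to 0.999 over 5 points.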

How the data were processed

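Per the labels, each array compares treated and untreated H460 RNA. The authors deposited 1 log ratio of its 2 channels for each probe, read here as log2. Scanner, normalization, spot filter, log base and numerator: not given in the sources used here. Depth and signal over background are unknown. Of 8170 probes 5930 match 1 gene, 79 several and 2161 none; probes of a gene were averaged, giving 7739 features. Arrays were centred on their medians (0.00162 to 0.0252 as deposited) and turned to treated over untreated. Forward and reversed 5-FU arrays of a replicate were averaged. limma 3.58.1 (R 4.3.3) fitted 5 drugs and a channel effect to all features, on 10 replicates of 12 arrays and 1 channel observation of weight 2 or 4 from the 5-FU arrays; that weight assumes it varies like the replicates. The ratio is tested against 0. A feature needs 1 residual degree of freedom. The fit was tested on simulated data.

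The 4 genes and the lists were chosen with earlier results of these data known. Named are the 4 genes, all histone and HMG genes of the lists, up to 4 called chaperones and enzymes per drug with the largest change and the same sign in both replicates, the 5 genes most like each of the 4 by Pearson r, and MDM2 and CDKN1A. Alternatives: no channel term, arrays as observations, no centring, scaling, replicate block, leaving out replicates, single probes, features with all values, robust moderation, an absolute log ratio of at least 1, and, added after seeing the data, 1 orientation of 5-FU.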

Additional observations from a re-analysis of the deposited data

Results flagged for a closer look

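Some genes lie on opposite sides of 0 on every array of one drug and of another, and none of these differences was tested. Each gap given is the widest of such pairs, out of 10 pairs of drugs. No share of all features that separate in this way is given, so the gaps only describe these arrays. The widest such gap for H1-10 is 5-FU minus cytarabine (−2.46, with the probes averaged). For H2AZ2 it is 5-FU minus cisplatin (−1.26), and for H3-3B also 5-FU minus cisplatin (−0.95). Among the listed histone and HMG genes, 5-FU minus cytarabine was −1.46 for H2AX, −0.97 for UBTF and −0.85 for SSRP1, 5-FU minus paclitaxel −0.93 for BBX, and 5-FU minus cisplatin −0.80 for SMARCE1. Cisplatin minus cytochalasin D was 0.62 for TFAM, 0.47 for CENPA, −0.48 for H1-3 and −0.38 for HMGN3, and cisplatin minus paclitaxel −0.40 for H2BC21. Cytarabine minus cisplatin was 0.64 for H3C10 and −0.27 for H2BC11, and cytarabine minus cytochalasin D −0.46 for HMGXB3. Of the chaperones and enzymes named, cisplatin minus cytochalasin D was 0.81 for EED, and cytarabine minus cisplatin 0.44 for HDAC9, 0.36 for HDAC1 and −0.19 for NAP1L4. These are means of turned arrays without the channel term, which shifts both drugs of a pair alike except 5-FU. With the term, some pairs no longer lie on opposite sides of 0. CENPA read 0.68 in cisplatin and 0.20 in cytochalasin D, and H2BC11 0.03 in cytarabine and 0.30 in cisplatin. H1-10, with the probes averaged, read −1.04 in 5-FU and −0.09 in cytarabine.

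SSRP1 has 1 of its 4 5-FU arrays apart from the others: the gap to the nearest is 0.85 of the range, above the critical value of Dixon's test, although the arrays span only −0.81 to −0.69. Chance gives such a mark in about 1 in 20 groups of independent values. The number of groups looked at is not given here, so the mark alone does not set SSRP1 apart. The 4 arrays are 2 replicates in both orientations, so that rate does not strictly hold here.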

How the results depend on the processing

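Leaving out a replicate moved the 5-FU means to −1.40 to −0.85 (H2AZ2), −0.77 to −0.60 (H3-3B), −2.67 to −1.04 (H1-10) and −2.63 to −1.54 (HMGB2), all below 0. With reversed 5-FU arrays alone H3-3B read −1.02, H1-10 −0.35 and HMGB2 −2.64, and with forward arrays alone H3-3B read −0.35. The channel term gave H3-3B 0.14 (cytarabine), 0.61 (cisplatin), 0.22 (paclitaxel) and 0.36 (cytochalasin D), and HMGB2 −2.63 (5-FU). With the probes averaged it gave H1-10 −1.04 (5-FU), −0.093, −0.60, −0.32 and −0.81 in the same order. These H1-10 values carry the difference between its 2 probes. Adding the replicate block to the channel term changed values only for H1-10 (−1.11) and HMGB2 (−2.62) with 5-FU. No centring, scaling and arrays as single observations moved no value of the 4 genes by more than the gene's SD between replicates pooled over drugs.

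Calls over all features were 882 (5-FU), 1050 (cytarabine), 802 (cisplatin), 327 (paclitaxel) and 532 (cytochalasin D), and among the listed genes 10, 8, 11, 1 and 4. Without the channel term they were 1800, 706 and 802 over all features for cytarabine, paclitaxel and cytochalasin D, and 4 and 9 listed genes for the last 2. Scaling gave 570 (cytarabine) and listed 4 (cytarabine), 7 (cisplatin) and 2 (paclitaxel). Arrays as observations gave 339 and listed 2 (cytochalasin D), and no centring listed 2, single probes listed 3 and complete features listed 2 (paclitaxel) and 5 (cytarabine). An absolute log ratio of at least 1 left 114, 113, 82, 53 and 67 calls, and 1, 0, 0, 0 and 0 listed, in limma, by its construction. Leaving out a replicate gave 464 to 844, 410 to 978, 341 to 751, 87 to 328 and 120 to 481 calls, and listed 5 to 11, 3 to 9, 2 to 11, 0 to 1 and 1 to 4. With no channel term H2BC11 in cytarabine turned from 0.03 to −0.21 and HMGB1 in cytochalasin D from 0.05 to −0.24, passing there. For the other changes the cause was not tested.

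Same-numbered replicates of different drugs did not deviate together across features (r −0.06 to 0.09 over 10 pairs of drugs). This check cannot show a pairing that is small or limited to some genes. A replicate block gave 807, 978, 712, 307 and 419 calls, and 0 listed for paclitaxel (limma). Of 32 calls in listed genes named by the rule, 21 missed in at least 1 alternative. The other 11 passed in every one that gave them a value, the absolute log ratio of at least 1 and single probes left aside. KDM5C and KMT2D with cisplatin, named after their values were seen, are not among the 32, and neither passed without the channel term. Without the channel term NCL fell with cytarabine (−0.38), cisplatin (−0.48) and cytochalasin D (−0.51), ANP32B (−0.31) and SSRP1 (−0.19) with cisplatin and PRMT3 with paclitaxel (−0.26), none passing with it. The PRMT3 value averages probes that disagree with paclitaxel, at −0.0082 and −0.52. Missing 5-FU values limit the channel estimate for H1-10 and HMGB2 to 1 pair of arrays.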
